A study of Mus musculus with 19 samples.

Results

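The receptors through which sensory neurons read neurotrophins, ligands of the GDNF (glial cell line-derived neurotrophic factor) family and a pair of other growth factors were followed across sorted mouse neurons. The set holds 9 of the 18666 genes in the deposited table and was picked by gene symbol, with earlier results of these data known: Gfra1, Gfra2, Gfra3, Ret, Ntrk2, Ntrk3, Ngfr, Kit and Met. All 9 symbols were found. The neurons came from dorsal root ganglia, the clusters of sensory cell bodies beside the spinal cord, at levels T11 to L6 of male C57BL/6 mice aged 2 months. In every mouse the MrgprA3+ neurons, an itch-sensing class, had been labelled genetically with green fluorescent protein, and the sources used here do not give the promoter or construct behind the label. Allergic contact dermatitis (ACD) was produced with squaric acid dibutylester in acetone, applied first to abdominal and later to lower back skin, while control mice received acetone alone. There were 5 mice per treatment and collection was on day 13.

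The groups were MrgprA3+ neurons of ACD mice (4 libraries), MrgprA3+ neurons of control mice (5), MrgprA3- neurons of ACD mice (5) and MrgprA3- neurons of control mice (5). MrgprA3+ cells were sorted on the green fluorescence. MrgprA3- cells were taken through a gate set to resemble the labelled cells in form, so they are a mixture of neuron classes of that size range and not all remaining neurons. Values are FPKM (fragments per kilobase of transcript and per M mapped fragments, M being 1e+06), computed by the authors, so levels of different genes can be set side by side per length. Where the values of a group are listed, they run by replicate number, 1 to 5, and for MrgprA3+ neurons of ACD mice 1, 2, 4 and 5. Replicate 3 of that group was not analysed here.

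The libraries held an estimated 10.3 to 21.4 M fragments. Mrgpra3, the gene that defines the sorted class, lay at 836 to 1079 FPKM in MrgprA3+ and 14.0 to 23.95 FPKM in MrgprA3- libraries of ACD mice, and at 948 to 1446 and 16.4 to 26.4 FPKM in those of control mice. The 8 markers of sensory neurons summed to 9179 to 11490 FPKM in MrgprA3+ and 7418 to 10360 FPKM in MrgprA3- libraries. Most of that sum was Tubb3, with group means of 5375 to 6941 FPKM. By the limma test used below, 3 of the 8 were higher in MrgprA3+ neurons and 1 lower in each treatment. The lower marker was Snap25, at a log2 difference of -1.09 in ACD and -1.32 in control mice. MrgprA3+ libraries held 13448 to 14360 genes above 0 and MrgprA3- libraries 15534 to 16163. Across the tested genes, each library's log2 values correlated with the mean of the rest of its group at 0.946 to 0.969 in MrgprA3+ and 0.986 to 0.991 in MrgprA3- libraries, so values differed more among MrgprA3+ replicates. A test was run on the 11996 genes that reached 1 FPKM in 4 or more libraries, and 8 of the 9 receptor genes were among them. Met was the exception.

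Growth factor receptors sort sensory neurons into classes. Neurotrophins act through Trk receptor tyrosine kinases, with p75, the product of Ngfr, as a shared partner that binds every neurotrophin. GDNF family ligands bind a GFRα protein that is anchored to the membrane and has no kinase of its own, and the complex then engages the kinase Ret. GFRα1 prefers GDNF, GFRα2 neurturin and GFRα3 artemin, so the GFRα protein sets which ligand a Ret-bearing neuron can read. In dorsal root ganglia, nonpeptidergic nociceptors come to depend on Ret after birth, GFRα3 and Kit are known from peptidergic nociceptors, TrkB (Ntrk2) from lightly myelinated touch neurons and TrkC (Ntrk3) from proprioceptors and other large neurons.

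Upstream sequence was looked up for the members whose ranges separated the sorted populations, since these genes differed together between the same cells. The RefSeq promoter table (GRCm38.p6) held 5 of the 9 members, namely Gfra1, Kit, Ntrk2, Ngfr and Met, and no entry was found for Gfra2, Gfra3, Ntrk3 and Ret. The 250 bases before the annotated transcription start are given 5′ to 3′ on the strand of the gene for Gfra1, the member that was higher in MrgprA3+ neurons, and for Kit, Ntrk2 and Ngfr, which were lower. Capitals mark matches, on either strand, to TGTGGT (the core recognised by RUNX factors), CCGGAA (the core recognised by ETS factors) and GGGCGG (the GC box). The windows are at chr19:58455399-58455648 on the minus strand for Gfra1, chr5:75574737-75574986 on the plus strand for Kit, chr13:58806319-58806568 on the plus strand for Ntrk2 and chr11:95587699-95587948 on the minus strand for Ngfr.
Gfra1: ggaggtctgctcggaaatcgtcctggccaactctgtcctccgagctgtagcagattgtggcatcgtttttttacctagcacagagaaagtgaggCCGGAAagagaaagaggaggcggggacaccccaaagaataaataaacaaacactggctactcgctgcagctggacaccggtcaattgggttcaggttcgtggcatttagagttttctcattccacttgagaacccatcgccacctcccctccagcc
Kit: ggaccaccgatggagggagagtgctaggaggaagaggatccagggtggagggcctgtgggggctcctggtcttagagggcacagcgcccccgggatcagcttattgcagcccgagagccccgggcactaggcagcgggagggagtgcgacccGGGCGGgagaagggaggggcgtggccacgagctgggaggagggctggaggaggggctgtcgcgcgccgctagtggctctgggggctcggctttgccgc
Ntrk2: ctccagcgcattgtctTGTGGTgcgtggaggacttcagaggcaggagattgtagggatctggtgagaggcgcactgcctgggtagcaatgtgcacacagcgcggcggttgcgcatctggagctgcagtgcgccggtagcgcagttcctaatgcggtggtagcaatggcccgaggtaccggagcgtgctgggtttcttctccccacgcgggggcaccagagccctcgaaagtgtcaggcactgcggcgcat
Ngfr: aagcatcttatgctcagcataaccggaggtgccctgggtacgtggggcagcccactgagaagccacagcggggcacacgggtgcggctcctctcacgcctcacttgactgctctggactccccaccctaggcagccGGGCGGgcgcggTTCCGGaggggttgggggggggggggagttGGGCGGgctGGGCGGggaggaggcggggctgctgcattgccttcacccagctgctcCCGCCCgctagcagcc
The Gfra1 window held 1 ETS core, 156 to 151 bases before the start, and no match to the other letters. For Kit the promoter table held 2 windows, and only the first listed was searched and is printed here. That Kit window held 1 GC box, 98 to 93 bases before the start. Ntrk2 held 1 RUNX core, 234 to 229 bases before the start. Ngfr held 4 GC boxes and 1 ETS core. The ETS core, 102 to 97 bases before the start, and the GC box nearest the start, at 16 to 11 bases, were on the opposite strand. The other GC boxes were on the strand of the gene. No match overlapped another. Among 32851 upstream windows of the same length in the table, 12% held the ETS core, 14% the RUNX core and 32.7% the GC box, so each of these short strings is common and a match is a description only. No binding was measured in these samples. The table's rows for Ntrk2, Ntrk3, Ret and Kit each combine 2 RefSeq transcripts, so their forms, such as the Trk forms with and without a kinase domain, were not told apart.

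MrgprA3+ neurons carried a different set of these receptors from MrgprA3- neurons, in ACD and in control mice alike. Gfra1 was the member that was higher in MrgprA3+ neurons, with a mean ratio of 4.12 in ACD and 4.68 in control mice. Kit, Ntrk2, Gfra2 and Gfra3 were lower by 5-fold or more in mean FPKM in control mice, Ngfr was lower by less, and Ret did not pass the test. By the limma test on log2(FPKM + 1), with p-values adjusted by Benjamini and Hochberg over all genes, 6 of the 8 tested members differed in ACD mice (1 higher, 5 lower) and 7 of 8 in control mice (1 higher, 6 lower). The same test called 22.1% of all tested genes in ACD mice (6.84% higher, 15.2% lower) and 27% in control mice (8.64% higher, 18.4% lower). The median difference over the 8 members was -1.70 in ACD mice and -2.09 in control mice on the log2 scale, against -0.12 and -0.14 over all genes tested. Quantile normalisation moved the median of all genes to 0.03 in ACD and 0.04 in control mice and gave a split of 1190 higher and 1296 lower in ACD mice and 1533 higher and 1529 lower in control mice, against 821 and 1826 and 1037 and 2204 on the deposited scale. The members called kept their direction and their call under it, with Ngfr at -1.15 and -1.41 and Gfra1 at 1.93 and 2.11. In these bulk libraries, fewer cells of a type and less RNA per cell cannot be told apart.

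**Figure D1:**
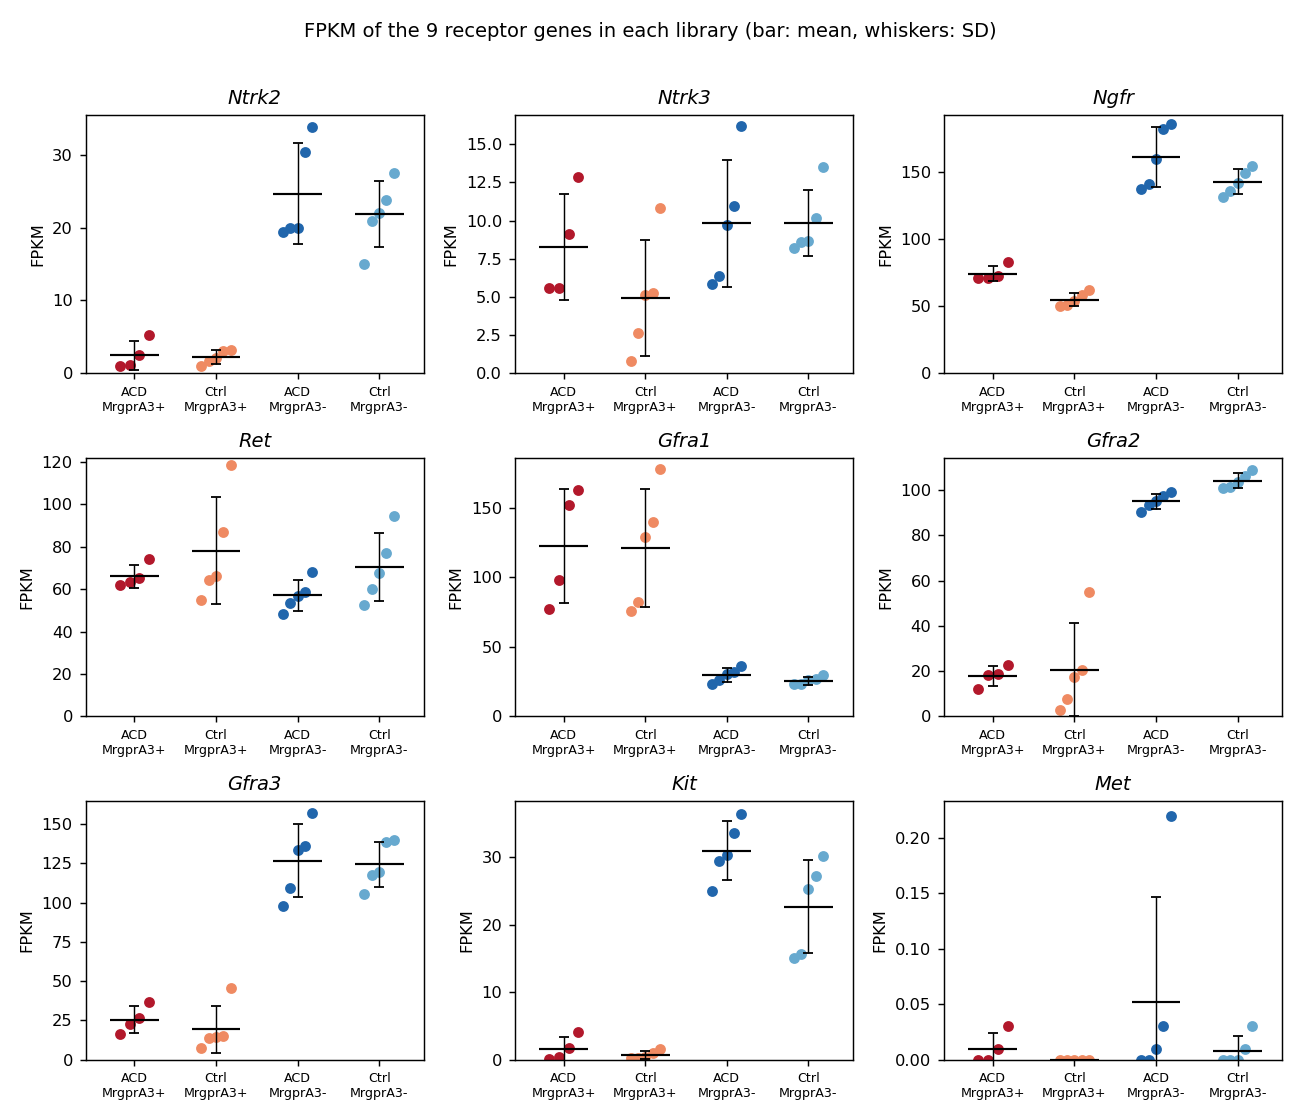
FPKM of the 9 receptor genes (vertical axes, linear, each with its own scale) in every library of the 4 groups. Each point is a library, the bar is the group mean and the whiskers are 1 SD, drawn no lower than 0. Gfra1 points of MrgprA3+ libraries lie above every MrgprA3- point, those of Gfra2, Gfra3, Ntrk2, Ngfr and Kit lie below, and those of Ret and Ntrk3 overlap.

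Among the GDNF family coreceptors, Gfra1 had 77.2, 98.0, 152 and 162 FPKM in MrgprA3+ neurons of ACD mice, against 26.2, 32.0, 23.3, 30.8 and 36.0 FPKM in MrgprA3- neurons. In control mice the values were 178, 75.6, 129, 139.7 and 82.3 FPKM in MrgprA3+ neurons and 23.0, 23.4, 26.7, 25.8 and 30.0 FPKM in MrgprA3- neurons. The lowest MrgprA3+ library of either treatment was above the highest MrgprA3- library, and the MrgprA3+ libraries spread over about 2-fold. Gfra1 averaged 122 ± 41.3 FPKM in MrgprA3+ neurons and 29.7 ± 4.99 FPKM in MrgprA3- neurons of ACD mice (SD, n = 4 and 5), a ratio of 4.12. In control mice it averaged 121 ± 42.5 FPKM in MrgprA3+ neurons and 25.8 ± 2.86 FPKM in MrgprA3- neurons (SD, n = 5 each), a ratio of 4.68. The log2 difference was 1.96 (SE 0.22, adjusted p = 1.11e-06) in ACD mice and 2.12 (SE 0.21, adjusted p = 8.59e-08) in control mice. In MrgprA3+ neurons Gfra1 exceeded 94.3% of the tested genes in ACD and 94.2% in control mice, against 78.5% and 75.9% in MrgprA3- neurons.

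Gfra2, the neurturin coreceptor, showed the reverse. It had 18.3, 12.1, 18.6 and 22.8 FPKM in MrgprA3+ neurons of ACD mice, against 97.3, 93.2, 99.0, 90.3 and 95.3 FPKM in MrgprA3- neurons. Among control mice Gfra2 had 7.70, 2.88, 17.4, 20.5 and 55.1 FPKM in MrgprA3+ neurons and 104, 101, 109, 101 and 106 FPKM in MrgprA3- neurons. The groups did not overlap in either treatment, but the MrgprA3+ libraries of control mice ran from 2.88 to 55.1 FPKM, a 19.1-fold range, while the MrgprA3- libraries stayed within 1.1-fold in ACD and 1.08-fold in control mice. Its SD on the log2 scale in MrgprA3+ neurons of control mice was 1.45, larger than that of 99.7% of tested genes in that group. In MrgprA3- neurons the SD was 0.051 in ACD and 0.046 in control mice, and 1.27% and 0.792% of tested genes had a smaller one. The log2 difference between the populations was -2.37 (SE 0.47, adjusted p = 0.00116) in ACD mice and -2.81 (SE 0.44, adjusted p = 9.70e-05) in control mice.

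Gfra3, the artemin coreceptor, had 36.9, 22.8, 16.2 and 26.3 FPKM in MrgprA3+ neurons of ACD mice, against 136, 157, 109.5, 97.9 and 133 FPKM in MrgprA3- neurons. Control mice gave 7.68, 15.2, 14.3, 45.8 and 13.7 FPKM in MrgprA3+ neurons and 106, 138, 119.8, 139.9 and 118 FPKM in MrgprA3- neurons. All MrgprA3+ libraries lay below all MrgprA3- libraries, with replicate 4 of the control mice standing above its group. The mean in MrgprA3+ neurons was 0.202 times that in MrgprA3- neurons in ACD mice and 0.155 times in control mice. On the log2 scale the difference was -2.30 (SE 0.30, adjusted p = 9.14e-06) in ACD mice and -2.86 (SE 0.29, adjusted p = 1.30e-07) in control mice.

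Ret, the kinase that all of these coreceptors use, had 63.3, 74.0, 62.0 and 65.1 FPKM in MrgprA3+ neurons of ACD mice, against 48.2, 58.6, 68.1, 56.5 and 53.4 FPKM in MrgprA3- neurons. Values of Ret in control mice were 55.0, 64.4, 86.9, 66.2 and 118 FPKM in MrgprA3+ neurons and 77.0, 60.3, 52.7, 67.4 and 94.2 FPKM in MrgprA3- neurons. The ranges overlapped in both treatments. The log2 difference was 0.22 (SE 0.18, adjusted p = 0.424) in ACD mice and 0.13 (SE 0.17, adjusted p = 0.630) in control mice, which did not pass the test and does not show that the levels are equal. Exact permutation of the libraries gave two-sided p of 0.0873 and 0.619. Ret was among the more abundant transcripts in every group, above 88.2% to 91.1% of the tested genes.

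The make-up of the coreceptor pool differed between the populations. As a share of the summed FPKM of Gfra1, Gfra2 and Gfra3, Gfra1 made up 72.6 ± 9.99% in MrgprA3+ and 11.8 ± 1.91% in MrgprA3- neurons of ACD mice (SD, n = 4 and 5). In control mice its share was 75.04 ± 14.4% in MrgprA3+ neurons and 10.2 ± 1.09% in MrgprA3- neurons (SD, n = 5 each). Gfra1 was the largest of the shares in every MrgprA3+ library and the smallest in every MrgprA3- library. In MrgprA3- neurons Gfra3 took 50.1% of the sum in ACD mice and 48.8% in control mice, and Gfra2 took 38.1% and 41.1%. In MrgprA3+ neurons Gfra3 took 16.5% and 12.1%, and Gfra2 10.9% and 12.9%.

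Gfra1 exceeded Gfra2 by 4.22 to 8.16 times in MrgprA3+ libraries of ACD mice, against ratios of 0.236 to 0.378 in MrgprA3- libraries. In control mice the ratio was 1.49 to 26.2 in MrgprA3+ and 0.222 to 0.283 in MrgprA3- libraries. Replicate 5 of the MrgprA3+ libraries of control mice gave the lowest of the MrgprA3+ ratios, with a Gfra2 share of 36.5%. The 3 coreceptors together summed to 132 to 211 FPKM in MrgprA3+ neurons and 219 to 282 FPKM in MrgprA3- neurons of ACD mice, ranges that did not meet. In control mice the sum was 93.7 to 206 FPKM in MrgprA3+ and 232 to 267 FPKM in MrgprA3- neurons. Per unit of Ret, the summed coreceptors averaged 2.54 in MrgprA3+ and 4.49 in MrgprA3- neurons of ACD mice, and 2.24 and 3.78 in control mice. These shares are descriptions of chosen genes and carry no test.

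**Figure D2:**
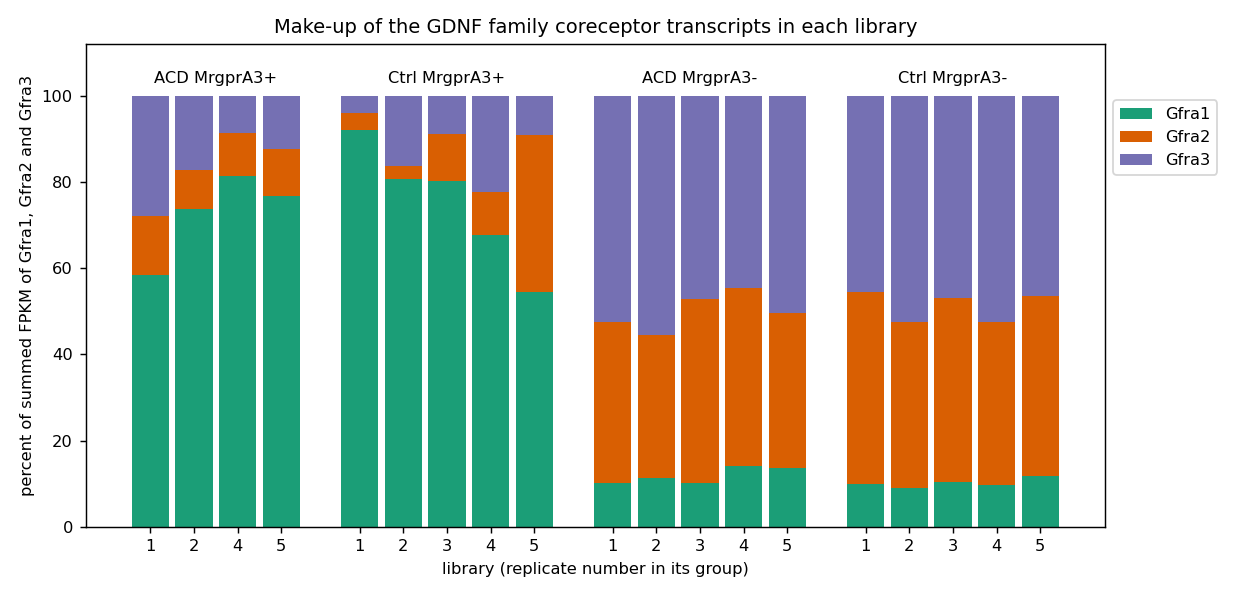
Percent of the summed FPKM of Gfra1, Gfra2 and Gfra3 (vertical axis) that each coreceptor took, as a stacked bar for each of the 19 libraries (horizontal axis, replicate number within its group). Gfra1 takes 54.5% to 92.0% of the sum in MrgprA3+ libraries and 8.90% to 14.1% in MrgprA3- libraries, and replicate 5 of the MrgprA3+ control group has a Gfra2 share of 36.5%.

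Of the neurotrophin receptors, Ntrk2, the BDNF (brain-derived neurotrophic factor) receptor, had 1.11, 0.96, 5.28 and 2.44 FPKM in MrgprA3+ neurons of ACD mice, against 19.4, 19.9, 19.9, 33.9 and 30.4 FPKM in MrgprA3- neurons. Ntrk2 in control mice had 0.93, 1.64, 3.07, 3.22 and 2.02 FPKM in MrgprA3+ neurons and 27.6, 23.9, 22.0, 21.0 and 15.1 FPKM in MrgprA3- neurons. No MrgprA3+ library came near the lowest MrgprA3- library, and the mean ratio was 0.0991 in ACD and 0.0994 in control mice. The difference in mean log2(FPKM + 1) was -3.02 (SE 0.31, adjusted p = 1.89e-07) in ACD mice and -2.88 (SE 0.29, adjusted p = 8.61e-08) in control mice, on a scale that understates changes of genes at low FPKM.

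Ntrk3, the receptor of neurotrophin-3, did not separate the populations. It had 5.58, 12.9, 5.57 and 9.10 FPKM in MrgprA3+ neurons of ACD mice, against 5.83, 9.73, 16.2, 10.98 and 6.35 FPKM in MrgprA3- neurons. Levels in control mice were 2.61, 0.78, 5.12, 5.24 and 10.8 FPKM in MrgprA3+ neurons and 13.5, 8.68, 8.59, 8.21 and 10.2 FPKM in MrgprA3- neurons. The ranges overlapped in both treatments, and within MrgprA3+ neurons of control mice the highest library was 13.9 times the lowest. The log2 difference was -0.21 (SE 0.39, adjusted p = 0.740) in ACD mice. In control mice it was -1.11 (SE 0.36, adjusted p = 0.0254), a call that did not survive every setting. It was lost without replicate 1 (adjusted p = 0.0602) or replicate 2 (log2 difference -0.75, adjusted p = 0.0857) of the MrgprA3+ libraries, without replicate 1 of the MrgprA3- libraries (adjusted p = 0.0640) and with no filter on low values (adjusted p = 0.0511). The difference between the treatments in this population difference was 0.90 (SE 0.53, adjusted p = 0.994), so the 2 treatments were not shown to differ.

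Within libraries, Ntrk3 exceeded Ntrk2 by 1.06 to 13.4 times in MrgprA3+ neurons of ACD mice, against ratios of 0.209 to 0.813 in MrgprA3- neurons. In control mice the ratio was 0.476 to 5.36 in MrgprA3+ and 0.364 to 0.674 in MrgprA3- neurons. Ntrk3 was thus above Ntrk2 in all MrgprA3+ libraries except replicate 2 of the control mice and below it in all MrgprA3- libraries. The ratio rests on Ntrk2 levels of 0.93 to 5.28 FPKM in MrgprA3+ neurons, where small absolute differences move it far.

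Ngfr, which encodes p75, was abundant in both populations and lower in MrgprA3+ neurons. It had 70.6, 70.6, 72.8 and 82.8 FPKM in MrgprA3+ neurons of ACD mice, against 138, 186, 182, 141 and 159.7 FPKM in MrgprA3- neurons. For control mice the Ngfr values were 58.0, 49.8, 53.7, 61.8 and 51.2 FPKM in MrgprA3+ neurons and 132, 136, 142, 155 and 149 FPKM in MrgprA3- neurons. Replicates lay close together, with a log2 SD of 0.108 in ACD and 0.127 in control mice among MrgprA3+ libraries, where the median tested gene had 0.401 and 0.43. Its log2 difference between the populations was -1.10 (SE 0.11, adjusted p = 1.32e-07) in ACD mice and -1.37 (SE 0.10, adjusted p = 1.15e-09) in control mice.

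Glia also carry p75, and markers of satellite glia moved in the same direction in control mice. The 8 satellite glia markers summed to 305 to 435 FPKM in MrgprA3+ and 372 to 541 FPKM in MrgprA3- libraries of ACD mice, where 0 of 6 tested were higher and 1 lower. In control mice they summed to 210 to 388 FPKM in MrgprA3+ and 428 to 553 FPKM in MrgprA3- libraries, and 0 of 6 were higher and 3 lower. The 8 Schwann cell markers summed to 1360 to 1462 FPKM in MrgprA3+ and 1018 to 1119 FPKM in MrgprA3- libraries of ACD mice, with 1 of 6 higher and 3 lower. In control mice they summed to 1204 to 1493 and 962 to 1235 FPKM, with 1 of 6 higher and 4 lower. The marker that was higher was Pmp22 in both treatments, at a log2 difference of 0.61 in ACD and 0.45 in control mice. The part of glial RNA in the Ngfr difference was not tested.

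Of the remaining growth factor receptors, Kit, the stem cell factor receptor, was low in MrgprA3+ neurons. It had 1.75, 0.15, 0.42 and 4.08 FPKM in MrgprA3+ neurons of ACD mice, against 36.5, 30.3, 25.1, 29.4 and 33.7 FPKM in MrgprA3- neurons. Kit in control mice had 0.94, 0.25, 0.41, 1.53 and 0.26 FPKM in MrgprA3+ neurons and 15.7, 27.2, 30.2, 15.1 and 25.2 FPKM in MrgprA3- neurons. The mean in MrgprA3+ neurons was 0.0516 times that in MrgprA3- neurons in ACD mice and 0.0299 times in control mice. On the log2 scale it differed by -3.86 (SE 0.34, adjusted p = 2.27e-08) in ACD mice and -3.82 (SE 0.32, adjusted p = 5.42e-09) in control mice, the largest of the 8 tested members in both treatments. By level, Kit exceeded 20.2% of the tested genes in MrgprA3+ and 79.2% in MrgprA3- neurons of ACD mice, and 7.79% and 73.6% in control mice. Mast cells also carry Kit, and the 3 mast cell markers in the table summed to at most 2.37 FPKM in MrgprA3+ and 1.27 FPKM in MrgprA3- libraries of ACD mice and to at most 2.70 and 1.32 FPKM in those of control mice.

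Met, the hepatocyte growth factor receptor, was above 0 in 7 of the 19 libraries and nowhere above 0.22 FPKM. In MrgprA3+ neurons of ACD mice it had 0.03, 0, 0 and 0.01 FPKM and in MrgprA3- neurons 0, 0.01, 0.22, 0.03 and 0 FPKM. In control mice it was listed at 0 in all 5 MrgprA3+ libraries and at 0, 0, 0.03, 0.01 and 0 FPKM in the MrgprA3- libraries. It entered no test across genes except in the alternative with no filter on low values, and no difference could be detected at this depth.

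For all of Gfra1, Gfra2, Gfra3, Ntrk2, Ngfr and Kit the ranges of the populations were separate in ACD mice and in control mice. Exact permutation of the libraries gave a two-sided p of 0.00794 for each in both treatments, the smallest that either design allows. Among all tested genes, 6.21% were higher and 14.6% lower without overlap in ACD mice, and 5.75% and 12% in control mice. The comparisons in ACD and in control mice rest on different mice and share no libraries, but they do share the fitted spread.

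**Figure D3:**
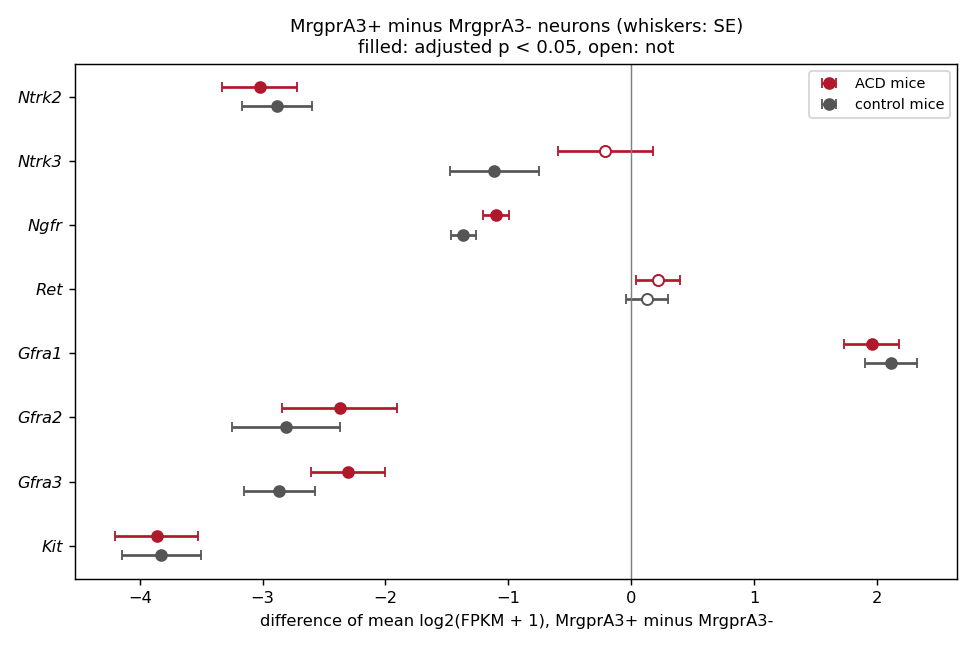
Difference of mean log2(FPKM + 1), MrgprA3+ minus MrgprA3- (horizontal axis), for the 8 tested receptor genes in ACD mice (upper point of each pair) and control mice (lower point). Whiskers are 1 SE of the model and filled points passed an adjusted p of 0.05. Gfra1 stands alone on the right at 1.96 and 2.12, Kit is farthest left at -3.86 and -3.82, and Ret lies near 0.

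The order of levels within a group also differed between the populations. In MrgprA3+ neurons of ACD mice the means ran from Gfra1 (122 FPKM) through Ngfr (74.2), Ret (66.1), Gfra3 (25.5), Gfra2 (17.96), Ntrk3 (8.28), Ntrk2 (2.45) and Kit (1.60) to Met (0.01). Neighbours in that order overlapped except at the steps from Ret to Gfra3, from Ntrk3 to Ntrk2 and from Kit to Met. In MrgprA3+ neurons of control mice Gfra1 (121 FPKM) was followed by Ret (78.2), Ngfr (54.9), Gfra2 (20.7), Gfra3 (19.3), Ntrk3 (4.91), Ntrk2 (2.18) and Kit (0.678), and there all neighbours overlapped down to Kit. In MrgprA3- neurons Ngfr led with 161 FPKM in ACD and 143 FPKM in control mice. Gfra3 and Gfra2 came next and overlapped with their upper neighbour, Ret followed at a clear step below them, and Kit, Gfra1 and Ntrk2 overlapped at a further step below Ret. Ntrk3 and Met came last in both treatments of MrgprA3- neurons, each separate from its upper neighbour.

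None of the 8 tested receptors passed the limma test for dermatitis in either population. In MrgprA3+ neurons 0 of 8 were called, as were 0 of the 11996 genes tested (0%), with 665 genes at an unadjusted p under 0.05, Ngfr the 1 member among them. In MrgprA3- neurons 0 of 8 were called, against 13 of all tested genes (0.108%, and 4 to 13 genes with 1 library left out), and Kit was the 1 member with an unadjusted p under 0.05. Each dermatitis comparison was fitted to the libraries of the 2 groups compared, and a fit of all 19 libraries called 0 of 8 members in both populations, with 42 genes (0.35%) in MrgprA3+ and 0 (0%) in MrgprA3- neurons.

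Ngfr was the member whose ranges separated in MrgprA3+ neurons under dermatitis. The ACD libraries ran from 70.6 to 82.8 FPKM and the control libraries from 49.8 to 61.8 FPKM, so each ACD library was above every control library. The means were 74.2 ± 5.83 FPKM in ACD and 54.9 ± 4.97 FPKM in control mice (SD, n = 4 and 5). The log2 difference of 0.43 (SE 0.15) had a two-sided p of 0.00794 by exact permutation, the lowest possible here, but an adjusted p of 0.875 over all genes. Of all tested genes 0.875% were likewise higher in ACD mice without overlap, and 0.742% lower. With the spread shared over all 19 libraries the adjusted p was 0.0764. In these neurons the summed satellite glia markers were 305 to 435 FPKM in the ACD and 210 to 388 FPKM in the control libraries, with a median difference of 0.002 over the 6 tested, and the summed Schwann cell markers were 1360 to 1462 and 1204 to 1493 FPKM, with a median difference of 0.34. None of these markers passed the test, and their part in the Ngfr value was not tested. In MrgprA3- neurons the Ngfr difference was 0.17 (SE 0.09, adjusted p = 0.654) with overlapping ranges, and the difference between the populations, 0.26 (SE 0.15, adjusted p = 0.994), did not pass the test.

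Gfra2 was the member whose ranges separated in MrgprA3- neurons. It lay at 90.3 to 99.0 FPKM in ACD and at 100.8 to 109 FPKM in control libraries, a small gap between 2 tight groups. The log2 difference was -0.13 (SE 0.07), with a two-sided p of 0.00794 by exact permutation and an adjusted p of 0.625. Of all tested genes 0.667% were lower in ACD mice without overlap, and 0.75% higher. In MrgprA3+ neurons the Gfra2 difference was 0.31 (SE 0.54, adjusted p = 0.957), and its sign rested on replicate 2 of the control mice, without which it was -0.18.

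Kit averaged 31.0 ± 4.35 FPKM in MrgprA3- neurons of ACD mice and 22.7 ± 6.88 FPKM in those of control mice (SD, n = 5 each), with overlapping ranges. The log2 difference of 0.48 (SE 0.18) had an adjusted p of 0.510, and exact permutation gave a two-sided p of 0.0714. Ntrk3 in MrgprA3+ neurons averaged 8.28 ± 3.48 FPKM in ACD and 4.91 ± 3.79 FPKM in control mice (SD, n = 4 and 5), a log2 difference of 0.84 (SE 0.46, adjusted p = 0.884). In the same neurons Gfra3 differed by 0.57 (SE 0.38, adjusted p = 0.891), Kit by 0.44 (SE 0.43, adjusted p = 0.922), Ret by -0.19 (SE 0.20, adjusted p = 0.928), Gfra1 by 0.03 (SE 0.26, adjusted p = 0.992) and Ntrk2 by 0.01 (SE 0.42, adjusted p = 0.998). The standard errors in MrgprA3+ neurons were 0.15 for Ngfr and up to 0.54 for Gfra2, so differences of that size could not be told from replicate spread. In MrgprA3- neurons Ret differed by -0.28, Gfra1 by 0.19, Ntrk2 by 0.15, Ntrk3 by -0.06 and Gfra3 by 0.02, with standard errors of 0.12 to 0.22.

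The dermatitis effect was not shown to differ between the populations for any of the 8 tested members. The limma test of that difference called 0 of them and 0 of all 11996 genes (0%), with 553 genes at an unadjusted p under 0.05, and every member had an adjusted p of 0.994 or more.

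**Figure D4:**
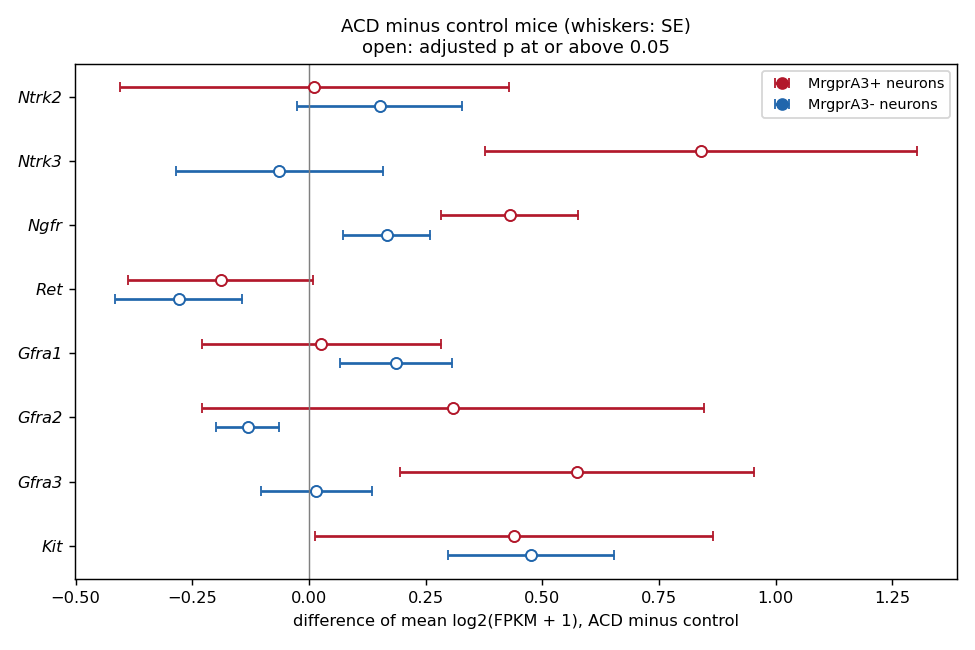
Difference of mean log2(FPKM + 1), ACD minus control (horizontal axis), for the 8 tested receptor genes in MrgprA3+ neurons (upper point of each pair) and MrgprA3- neurons (lower point). Whiskers are 1 SE and all points are open because none passed an adjusted p of 0.05. The whiskers of MrgprA3+ neurons are wider, and Ngfr sits at 0.43 in MrgprA3+ and 0.17 in MrgprA3- neurons.

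The ligands of these receptors were mostly near 0 in the sorted neurons. Of 11 listed ligands 9 were in the table and 3 passed the filter, and not every ligand below the filter is given a level here. Kitl, which encodes the Kit ligand stem cell factor, averaged 1.45 ± 0.311 FPKM in MrgprA3+ and 5.61 ± 0.749 FPKM in MrgprA3- neurons of ACD mice (SD, n = 4 and 5). In control mice it averaged 0.388 ± 0.247 FPKM in MrgprA3+ and 6.44 ± 0.788 FPKM in MrgprA3- neurons (SD, n = 5 each). Kitl was therefore lower in MrgprA3+ neurons, as Kit was, with a log2 difference of -1.44 (SE 0.21, adjusted p = 2.77e-05) in ACD mice and -2.44 (SE 0.20, adjusted p = 4.11e-09) in control mice. The difference between these values, 1.00 (SE 0.29), had an adjusted p of 0.994. Hgf, the ligand of Met, was lower in MrgprA3+ neurons at low levels, with means of 0.418 FPKM in MrgprA3+ and 2.48 FPKM in MrgprA3- neurons of ACD mice and 0.06 and 1.56 FPKM in control mice (adjusted p = 0.00037 and 0.000372).

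Bdnf, the ligand of TrkB, was the ligand with the highest level. It averaged 43.5 ± 10.4 FPKM in MrgprA3+ and 54.9 ± 6.61 FPKM in MrgprA3- neurons of ACD mice (SD, n = 4 and 5), and 26.8 ± 18.4 and 35.8 ± 15.1 FPKM in control mice (SD, n = 5 each). The population difference of -0.36 (SE 0.35, adjusted p = 0.510) in ACD mice and -0.57 (SE 0.33, adjusted p = 0.222) in control mice did not pass the test. Under dermatitis Bdnf differed by 0.91 (SE 0.38, adjusted p = 0.875) in MrgprA3+ and 0.69 (SE 0.23, adjusted p = 0.503) in MrgprA3- neurons. Gdnf and Artn, which encode GDNF and artemin, had group means of at most 0.088 FPKM, Ntf5 of at most 0.124 FPKM, Pspn of at most 0.36 FPKM and Ntf3 of at most 0.926 FPKM.

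Genes that act around or below the receptors are given by list, to be read against the 22.1% of all tested genes called in ACD and 27% in control mice. Their list medians lay between -0.28 and 0.03, against -0.12 in ACD and -0.14 in control mice over all genes. Other receptor tyrosine kinases had 1 higher and 5 lower of 12 tested in ACD mice and 3 higher and 5 lower in control mice. Fgfr1, a fibroblast growth factor receptor, was lower by a log2 difference of -1.20 in ACD and -1.50 in control mice, and Ror2, a Wnt5a receptor, by -1.30 and -1.45. Pdgfrb, the platelet-derived growth factor receptor beta, was lower by -1.28 in ACD mice and -1.15 in control mice. Pdgfrb is also 1 of the 6 markers of fibroblasts and mural cells, which summed to 7.57 to 14.6 FPKM in MrgprA3+ and 19.5 to 40.8 FPKM in MrgprA3- libraries of ACD mice and to 5.90 to 11.3 and 15.3 to 38.5 FPKM in those of control mice, with 0 of 3 tested higher and 2 lower in each treatment. Of the macrophage and leukocyte markers 2 of 2 tested were lower in MrgprA3+ neurons in each treatment, and the part of such cells in these differences was not tested. Mst1r, a kinase related to Met, was higher in control mice (1.39, SE 0.22, adjusted p = 5.63e-05), and its difference in ACD mice was 0.56 (adjusted p = 0.0940). Where Met itself was near 0, Mst1r averaged 4.46 FPKM in MrgprA3+ and 2.56 FPKM in MrgprA3- neurons of ACD mice, and 6.65 and 1.94 FPKM in control mice.

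Coreceptors and partners had 2 higher and 4 lower of 13 tested in ACD mice and 4 higher and 4 lower in control mice. Among them were 2 proteins known to bind p75 in one complex. Lingo1 was lower (-1.79 in ACD, -2.20 in control mice), while Rtn4r, the Nogo receptor, was higher (0.91 and 1.11). Nrp1, a semaphorin and VEGF coreceptor, was higher in control mice (0.93) and had 0.41 (adjusted p = 0.147) in ACD mice. Sorcs3, of the sortilin family, was lower (-1.36 in ACD, -0.87 in control mice). Partners of the p75 death domain had 1 higher and 1 lower of 14 tested in ACD mice and 2 higher and 3 lower in control mice, with Bex1 lower (-0.89 and -1.37), Maged1 higher (0.42 and 0.40) and Zfp110 lower in control mice (-0.91) against -0.04 (adjusted p = 0.922) in ACD mice.

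Adaptors and docking proteins had 3 higher and 2 lower of 23 tested in ACD mice and 3 higher and 3 lower in control mice. Ptpn6, the phosphatase SHP-1, which dampens signalling by receptor kinases, averaged 17.8 ± 4.30 FPKM in MrgprA3+ and 0.522 ± 0.129 FPKM in MrgprA3- neurons of ACD mice (SD, n = 4 and 5). In control mice it averaged 19.1 ± 6.61 and 0.668 ± 0.433 FPKM (SD, n = 5 each). Its log2 difference was 3.598 (SE 0.25, adjusted p = 9.36e-10) in ACD mice and 3.57 (SE 0.24, adjusted p = 1.60e-10) in control mice. Dok1, a docking protein of receptor kinases, was higher (1.59 and 1.41). Grb10 was lower (-1.83 and -1.13), and Grb14 was lower in control mice (-1.14) against -0.36 (adjusted p = 0.431) in ACD mice.

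The Ras-MAPK and PI3K core had 3 higher and 1 lower of 26 tested in ACD mice and 3 higher and 4 lower in control mice. Map2k2, the kinase MEK2, was higher (0.89 in ACD, 0.71 in control mice) and Pik3r3, a PI3K regulatory subunit, was lower (-0.81 and -0.79). Hras was higher in ACD mice (0.72), where its difference in control mice was 0.37 (adjusted p = 0.211). Creb1 (-0.77) and Mtor (-0.76) were lower in control mice, against -0.24 (adjusted p = 0.470) and -0.65 (adjusted p = 0.0546) in ACD mice. Feedback inhibitors had 1 higher and 2 lower of 14 tested in ACD mice and 1 higher and 3 lower in control mice. Errfi1 was higher (0.92 and 0.99) and Spred1 lower (-1.26 and -0.88), Spred2 was lower in ACD mice (-1.39, against -0.22 with adjusted p = 0.720 in control mice), and Spry3 was lower in control mice (-0.84, against -0.04 with adjusted p = 0.936 in ACD mice).

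Transcription factors of sensory neuron diversification had 2 higher and 2 lower of 8 tested in each treatment. Etv1, an ETS factor, averaged 271 ± 41.6 FPKM in MrgprA3+ and 54.1 ± 4.93 FPKM in MrgprA3- neurons of ACD mice (SD, n = 4 and 5), and 251 ± 74.3 and 50.7 ± 1.84 FPKM in control mice (SD, n = 5 each). Its log2 difference was 2.30 (SE 0.16, adjusted p = 6.81e-10) in ACD mice and 2.23 (SE 0.15, adjusted p = 1.60e-10) in control mice. Klf7 was higher (0.35 and 0.59). Runx1, a factor known from nonpeptidergic nociceptors, was lower (-0.91 and -1.19), and Zfp521 was lower (-1.29 and -2.41). None of the genes of these lists passed the test under dermatitis in either population.

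**Figure D5:**
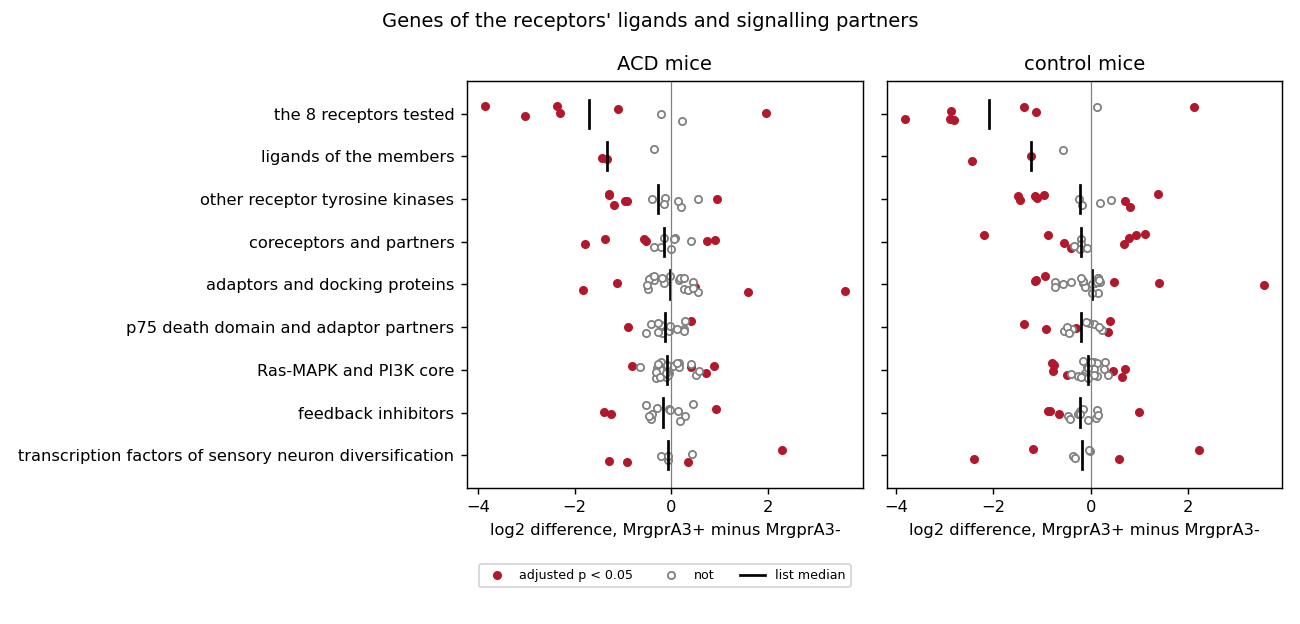
Log2 difference between MrgprA3+ and MrgprA3- neurons (horizontal axis) for each tested gene of the receptor set, its ligands and the signalling lists (rows), in ACD mice on the left and control mice on the right. Filled points passed an adjusted p of 0.05 and the black line is the list median, which lies at -1.70 and -2.09 for the receptors and between -0.28 and 0.03 for the 7 lists of signalling partners.

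Over the 19 libraries, centred log2(FPKM + 1) profiles were compared with those of 7210 genes that averaged at least 5 FPKM. The measure was the root mean square difference between profiles, which is smaller for more alike genes, and it is given as a description because all libraries share the 4 groups and the population difference. Nearest to Gfra1 were Gm10007 (0.284), Etv1 (0.320) and Cpne4 (0.339), where the median over the genes searched was 1.15. Nearest to Gfra2 were Gm765 (0.310), Susd2 (0.361) and Gpx3 (0.391), and nearest to Gfra3 were Tac1, the substance P precursor (0.391), C1qtnf1 (0.455) and Chrna3 (0.467). Ntrk2 was nearest to Htr1d, a serotonin receptor (0.323), Adgrg2 (0.431) and Ccdc141 (0.489). Kit was nearest to Pou4f3 (0.493), Sv2b (0.510) and Cntn1 (0.579). Ngfr was nearest to Pygb (0.194), Chgb (0.198) and Snap25 (0.210), the last of these also a sensory neuron marker used above. Ntrk3 had Btd (0.403), Cdyl2 (0.439) and Mphosph6 (0.454) as nearest genes.

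Among the members themselves, Ntrk2 and Gfra3 differed by 0.675, where their own profiles had a root mean square of 1.54 and 1.40. Ngfr and Ntrk3 differed by 0.653, which is about the size of their own profiles (0.660 and 0.741). Ntrk2 and Gfra2 differed by 0.730 and Gfra2 and Gfra3 by 0.751. Gfra1 and Kit were the least alike pair, at 2.99.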

How the data were processed

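Per the labels' protocols, both populations were sorted from each mouse, RNeasy Micro kits were used for RNA and libraries were made from polyadenylated RNA. Bowtie2 and mm9 are named in the submitters' processing notes. The sources used here do not name the Bowtie2 version, the annotation or the quantification program. The authors deposited FPKM in a single table with 2 decimals, which divides out depth and length but not the make-up of the RNA. The 9 members and the gene lists were chosen with earlier results of these data known.

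From these values, log2(FPKM + 1) was fitted with limma 3.58.1 (trend and robust, statmod 1.5.0, R 4.3.3) for the genes that reached 1 FPKM in 4 or more of 19 libraries. Population comparisons and the difference between treatments used all 19 libraries, and dermatitis comparisons the libraries compared. That choice was made with earlier results of these data known, and both fits are reported. The median log2 SD was 0.401 to 0.43 in MrgprA3+ and 0.206 to 0.213 in MrgprA3- groups. The limma p-values are two-sided, adjusted by Benjamini and Hochberg over 11996 genes, threshold 0.05. Each sets a difference against the spread between these libraries, as limma adjusts that spread across genes. Single values were compared by exact permutation of libraries. Depth was estimated from the steps between low FPKM of 814 single-transcript genes, where 64.7% to 87.5% of values per library lay within 0.2 of a whole step, using GRCm38 lengths, so it is approximate. Named from the lists were the ligands that passed the filter and others below it, and the 3 largest called differences per list and population comparison. For each called member the 3 most alike profiles were named. Alternatives comprised a pseudocount of 0.1, removing the filter or raising it to 5 FPKM, 2 rescalings, no robust option, other sets of libraries, a replicate block and leaving out each library. Member sequences came from RefSeq (GRCm38.p6) and were matched by gene, with no coordinates taken from the mm9 files.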

Additional observations from a re-analysis of the deposited data

Results flagged for a closer look

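In 35 groups of libraries, 1 for each member and group with values that differed, the gap between the highest or lowest library and its neighbour was compared with the range of the group by Dixon's criterion, which chance passes in about 1 of 20 groups. Gfra3 was 45.8 FPKM in replicate 4 of the MrgprA3+ neurons of control mice, where the next library had 15.2 FPKM, a gap of 0.802 of the range. Without that replicate the Gfra3 difference between the populations of control mice was -3.23 (SE 0.20, adjusted p = 3.05e-10 by limma) on the log2 scale, and its call held. Met was 0.22 FPKM in replicate 3 of the MrgprA3- neurons of ACD mice, where the next library had 0.03 FPKM, a gap of 0.864 of the range.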

How the results depend on the processing

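There were 18 alternatives for the population comparison of control mice, 17 for that of ACD mice and 26 for the difference between treatments. For dermatitis there were 17 in MrgprA3+ and 18 in MrgprA3- neurons. Under all of them the count of members past the threshold stayed within 1.5 times its value. It was 6 in ACD mice, 6 or 7 in control mice and 0 elsewhere. The count was out of 8 tested members, except with no filter. There Met entered as well, and 6 of 9 were called in each population comparison. Of 768 recomputed member differences, 731 kept direction and call, 4 lost a call (all Ntrk3 in control mice, given above), 33 were uncalled and changed sign, and 0 calls reversed. Kit ranged from -4.94 to -3.55 in ACD and -5.09 to -3.50 in control mice. Over all genes, dermatitis in MrgprA3- neurons called 13 genes, but 6 with a pseudocount of 0.1, 0 with no filter, 2 with the replicate block and 0 with all 19 libraries, and 4 to 13 with 1 library left out (8 and 6 without control replicates 1 and 2, and 7, 5, 4 and 6 without ACD replicates 1, 2, 3 and 5). In MrgprA3+ neurons it called 0, but 42 with all 19 libraries and 0 to 1 with 1 library left out (1 without control replicate 2). The difference between treatments called 0, and 0 to 1 with 1 left out (1 without ACD MrgprA3+ replicate 5). The causes were not tested.

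The labels do not say that a replicate number marks 1 mouse. Deviations from the group means correlated at -0.056 to 0.193 between same-numbered libraries of the populations, above 0.1 in 4 of 9 pairs. Of the 9 MrgprA3+ libraries, 5 correlated best with their own number among the 5 MrgprA3- libraries of their treatment. Whether the numbers mark mice was not tested. The replicate block changed no member call, with 6 members in ACD and 7 in control mice, and called 2399 and 3123 genes over all. Depth limits what can be said of Met and of ligands near 0.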
